A study of Homo sapiens with 6 samples.

Results

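AMP-activated protein kinase (AMPK) and its upstream kinase LKB1 are described here at the RNA level in PDCD4 silenced MCF10A cells. The 7 genes are PRKAA1 and PRKAA2 (catalytic alpha subunits), PRKAB1 and PRKAB2 (beta subunits), PRKAG1 and PRKAG2 (gamma subunits) and STK11, which encodes LKB1. They were picked by name out of 34486 genes, estimated reads were summed over the 87 listed transcripts of these genes, and PRKAG2 was also followed by transcript. All 7 had reads and passed the filter on low counts that left 13047 genes. The genes were chosen with the siPDCD4 and siCT values already known, so their differences between the groups are a description and carry no test.

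MCF10A is an immortalised, non-tumorigenic human breast epithelial line, grown here with horse serum, epidermal growth factor, insulin, hydrocortisone and cholera toxin. In the 3 siPDCD4 libraries wild-type cells had received 10 nM siRNA against PDCD4 by reverse transfection for 48 h, and in the 3 siCT libraries wild-type cells had received a control siRNA at the same dose and time. PDCD4 is a tumour suppressor that binds RNA and is known to inhibit eIF4A, a helicase of translation initiation. In MCF10A cells the authors found PDCD4 mainly in the nucleus and did not identify eIF4A among its protein partners. Total RNA was sequenced as paired reads of 75 bases. A single cell line and a single time were used, and the labels do not say whether the 3 libraries of a group are separate cultures. Errors given here thus measure the spread between libraries, which may be technical.

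AMPK is a heterotrimer that senses a fall in cellular energy. The gamma subunit binds adenine nucleotides, the beta subunit holds the complex together and can bind glycogen, and the alpha subunit carries the kinase domain. LKB1, in a complex with the pseudokinase STRAD and the scaffold protein MO25, phosphorylates the activation loop of alpha, and the calcium-dependent kinase CaMKK2 can do the same. Active AMPK is known to restrain fatty acid, sterol and protein synthesis and to favour glucose uptake and autophagy. Germline changes in STK11 cause a polyposis syndrome with a high risk of cancer, and changes in PRKAG2 cause a heart muscle disease with glycogen storage.

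Library totals lay between 13410441 and 21828931 estimated counts. PDCD4 itself had 9.15, 7.43 and 8.62 CPM in siPDCD4 libraries, against 90.4, 89.0 and 61.1 CPM in siCT libraries. Its log2 fold change was -3.25 ± 0.17 (SE). CPM are counts scaled for depth, for genes with an offset for transcript length. All 7 markers of basal mammary epithelium and all 4 general epithelial markers exceeded 1 TPM (a level per transcript length, with the same total in each library) in every library, and their basal sum was 2207 to 2715 TPM in siPDCD4 and 2423 to 2821 TPM in siCT. No fibroblast, endothelial or hormone-responsive luminal marker exceeded 1 TPM in every library, and among leukocyte markers the macrophage-associated CD68 did, while the T cell marker CD3E was listed at 0. The library siCT replicate 3 stood apart on the first principal component (30.6, against -16.5 to 8.65 for the other 5), and had the lowest total and the lowest share of counts in protein-coding genes. In bulk RNA of this kind, fewer cells of a type and less RNA per cell cannot be told apart.

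Of the 7 genes, PRKAG2 was lower in siPDCD4 cells and the other 6 stayed within 0.11 of 0 on the log2 scale. PRKAG2 was the single member of the 56 genes past a false discovery rate (FDR) of 5% in edgeR, that is 1 of 7, where 0.429% of all 13047 tested genes passed. It was also the single member whose siPDCD4 and siCT libraries did not overlap in CPM, which was the case for 13.9% of all tested genes. Since the genes were selected on this comparison, nothing is read from either count. The median log2 fold change over the 7 genes was 0.02, beside -0.01 over all tested genes.

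The PRKAG2 gene lies on the minus strand of chromosome 7 (GRCh38, 151556124 to 151877214) and is annotated with several start sites. Its leading transcript here, PRKAG2-203, begins at an internal start and encodes 328 codons, whereas PRKAG2-201, which begins at the far upstream start, encodes 569. All 328 codons of the short form are the last 328 of the long one, so that 241 codons precede them in PRKAG2-201. The coding bases around the point where the short form begins, from GENCODE release 44, are shown because reads from the shared part cannot by themselves tell the 2 forms apart. The capitals mark the first codon of PRKAG2-203, whose first base is at position 151632099, and which is codon 242 of PRKAG2-201.
PRKAG2-201, coding bases around codon 242: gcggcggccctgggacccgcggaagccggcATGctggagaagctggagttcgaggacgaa
PRKAG2-203, first coding bases: ATGctggagaagctggagttcgaggacgaa

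The DNA before these 2 starts is shown because transcripts from the internal start carried most PRKAG2 counts and those from the far upstream start hardly any. All 7 genes matched the RefSeq promoter table by symbol. The sequences are from RefSeq on GRCh38.p14, 5′ to 3′ on the minus strand, cut to the part of the 250 bases before each RefSeq start that lies outside every annotated PRKAG2 exon. Capitals mark the GC box (GGGCGG or CCGCCC), a short motif known to bind Sp-family factors.
PRKAG2, before the internal start at 151632233 (chr7:151632418-151632483): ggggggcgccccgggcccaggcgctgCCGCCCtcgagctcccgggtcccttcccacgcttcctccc
PRKAG2, before the far upstream start at 151877115 (chr7:151877215-151877365): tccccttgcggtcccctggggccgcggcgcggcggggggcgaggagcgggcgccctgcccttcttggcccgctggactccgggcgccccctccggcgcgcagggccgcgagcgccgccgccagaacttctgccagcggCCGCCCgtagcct

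Over the whole 250 bases, the internal start had 86.0% G and C, 41 CpG dinucleotides and 4 GC boxes, and the far upstream start had 75.6%, 30 and 2. The median of 35116 RefSeq promoters of this length was 58.0% with 11 CpG dinucleotides, and 42.6% of them held a GC box. Searched on both strands, neither window held the AP-1 site TGACTCA (in 4.20% of all promoters), the cyclic AMP response element TGACGTCA (1.65%) or the E-box CACGTG (6.34%). The 3 other RefSeq starts of PRKAG2, at 151633111, 151736263 and 151814859, lie in windows of 43.6%, 45.2% and 57.2% G and C with none of these motifs. A match or its absence describes these letters only.

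PRKAG2 encodes the gamma subunit with the highest RNA level in these cells. Its level was 109.7, 119.4 and 127.7 CPM in siPDCD4 libraries, against 177.7, 175.5 and 175.6 CPM in siCT libraries. Every siPDCD4 library was thus below every siCT library, and the siCT libraries lay closer together than the siPDCD4 libraries. The means were 118.9 ± 8.98 CPM in siPDCD4 and 176.3 ± 1.23 CPM in siCT (SD, n = 3 each), a log2 fold change of -0.57 ± 0.08 (SE) and a change in the mean of -32.5%. In estimated counts before scaling, the libraries had 2034, 1692 and 1993 in siPDCD4 against 3720, 2977 and 2219 in siCT. Without siCT replicate 3 the log2 fold change was also -0.57. Of the 34 genes called lower in edgeR, 25 had a larger fall. With 1 library left out in turn, the log2 fold change lay between -0.61 and -0.51, and the call was kept in 3 of 6 cases. It was lost without siPDCD4 replicate 1 (-0.51), siPDCD4 replicate 2 (-0.57) or siCT replicate 2 (-0.57).

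**Figure D1:**
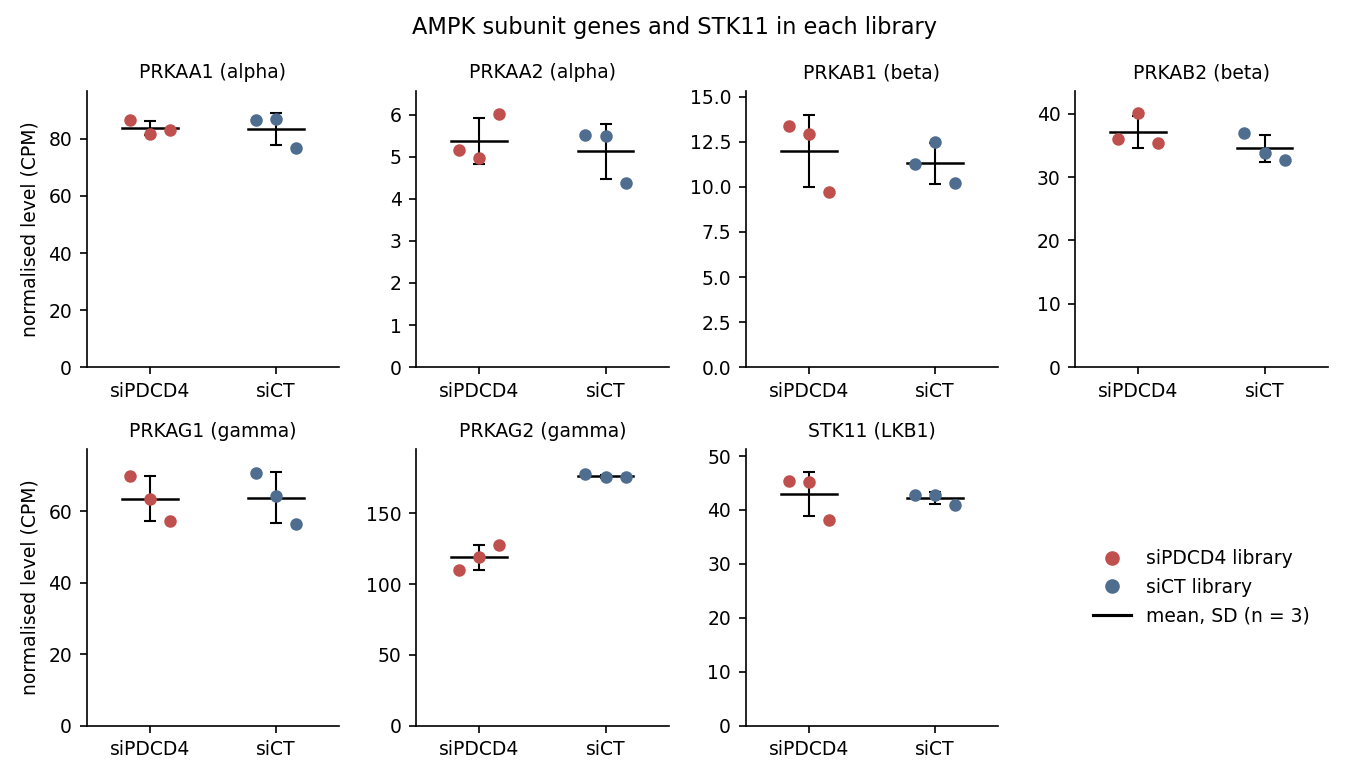
Normalised level (CPM, y axes from 0, scaled per gene) of the 6 AMPK subunit genes and STK11 in the siPDCD4 and siCT libraries (x axis, points), where black bars give group mean and SD (n = 3). PRKAG2 stood between 109.7 and 127.7 CPM in siPDCD4 and between 175.5 and 177.7 CPM in siCT, and in the other 6 panels the groups overlapped.

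PRKAG1 encodes the other gamma subunit found in these cells, and is on chromosome 12 (49002274 to 49018807). It had 69.9, 63.4 and 57.3 CPM in siPDCD4 libraries, against 70.8, 64.3 and 56.5 CPM in siCT libraries. Levels fell from replicate 1 to replicate 3 in both groups. The groups overlapped almost completely, with a log2 fold change of -0.01 ± 0.11. PRKAG1-206, with 331 codons and thus close in length to the short PRKAG2 form, held 86.7 ± 0.71% of the PRKAG1 counts in siPDCD4 and 87.0 ± 2.81% in siCT. PRKAG3, the gamma gene known from skeletal muscle, was listed at 0 in all 6 libraries.

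Set side by side per length, the balance of the gamma genes differed between the groups. PRKAG2 was at 58.6, 63.4 and 67.1 TPM in siPDCD4 libraries and at 91.0, 95.9 and 89.5 TPM in siCT libraries, and PRKAG1 averaged 42.8 ± 4.59 TPM in siPDCD4 and 42.4 ± 5.09 TPM in siCT. The ratio of PRKAG2 to PRKAG1 TPM was 1.24, 1.48 and 1.76 in siPDCD4 libraries, against 1.98, 2.15 and 2.45 in siCT libraries. PRKAG2 thus held 59.6 ± 4.22% of the gamma TPM in siPDCD4 and 68.6 ± 2.30% in siCT, with no overlap between the libraries. The summed gamma level was 105.8 ± 0.43 TPM in siPDCD4 and 134.5 ± 7.53 TPM in siCT. Both the share and the sum contain the PRKAG2 value for which the gene was chosen.

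**Figure D2:**
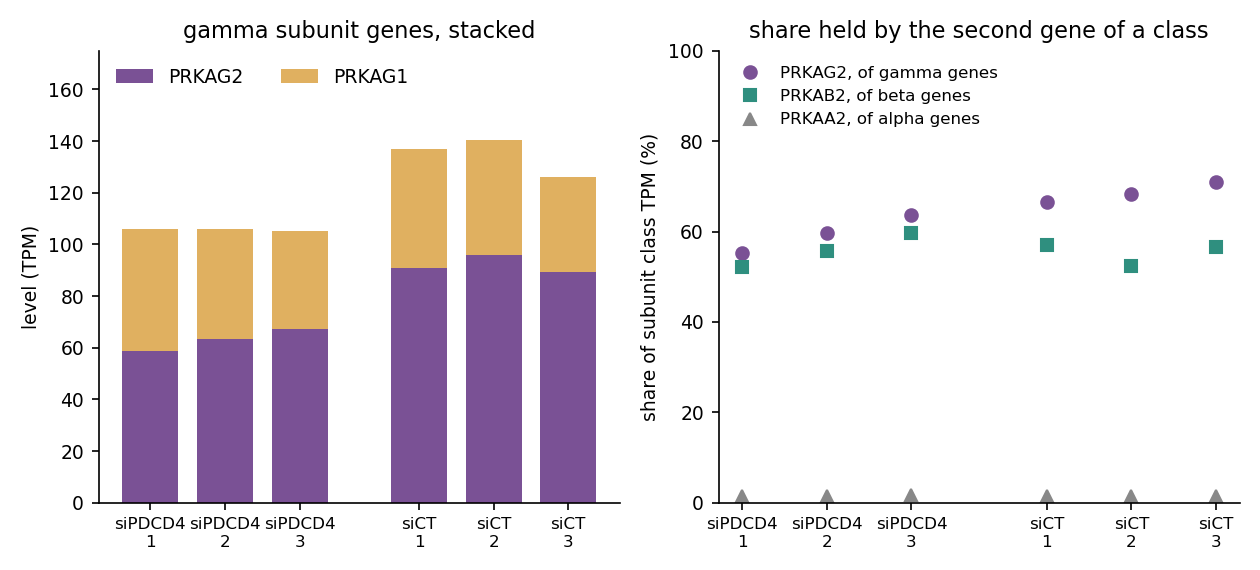
Left, level of PRKAG2 and PRKAG1 (TPM, stacked bars from 0) in each of the 6 libraries; right, share of a subunit class's TPM (percent) held by PRKAG2, PRKAB2 and PRKAA2 in the same libraries. The PRKAG2 share lay between 55.3% and 63.7% in siPDCD4 and between 66.4% and 71.0% in siCT, whereas the shares of PRKAB2 and PRKAA2 overlapped between the groups.

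PRKAA1, on chromosome 5 (40759389 to 40798374), encodes the catalytic subunit found in most tissues. It had 86.5, 81.7 and 83.2 CPM in siPDCD4 libraries, against 86.5, 87.1 and 76.9 CPM in siCT libraries. The groups overlapped, and the log2 fold change was 0.00 ± 0.09. Its leading transcript PRKAA1-204, of 559 codons, held 76.2 ± 1.97% of its counts in siPDCD4 and 76.2 ± 1.84% in siCT. PRKAA1-202, of 574 codons, held 9.44 ± 2.83% in siPDCD4 and 11.2 ± 1.71% in siCT, and the retained-intron transcript PRKAA1-205 held 7.65 ± 1.50% in siPDCD4 and 6.53 ± 0.52% in siCT.

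PRKAA2, on chromosome 1 (56645314 to 56715335), encodes the catalytic subunit best known from muscle and heart. Its level was low, with 92.1, 71.0 and 97.0 estimated counts in siPDCD4 libraries against 114.0, 96.2 and 54.0 in siCT libraries. After scaling this came to 5.16, 4.97 and 6.00 CPM in siPDCD4 and 5.51, 5.49 and 4.37 CPM in siCT. The groups overlapped, and the log2 fold change of 0.06 ± 0.20 had the largest SE of the 7 genes. Per length, PRKAA2 held 1.59 ± 0.17% of the alpha TPM in siPDCD4 and 1.51 ± 0.09% in siCT, the rest being PRKAA1.

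RNA of both beta genes was present, with PRKAB2 well above PRKAB1 in CPM and closer to it per length. PRKAB1, on chromosome 12 (119667864 to 119681624), had 13.4, 12.9 and 9.69 CPM in siPDCD4 libraries, against 11.3, 12.5 and 10.2 CPM in siCT libraries, a log2 fold change of 0.08 ± 0.17. PRKAB2, on chromosome 1 (147155106 to 147172550), had 35.9, 40.0 and 35.4 CPM in siPDCD4 libraries, against 36.9, 33.9 and 32.7 CPM in siCT libraries, a log2 fold change of 0.10 ± 0.10. In neither gene did the groups separate. Per length, PRKAB2 held 55.9 ± 3.78% of the beta TPM in siPDCD4 and 55.4 ± 2.55% in siCT. PRKAB2-201, of 272 codons, held nearly all PRKAB2 counts, at 97.4 ± 0.95% in siPDCD4 and 97.5 ± 0.62% in siCT. PRKAB1 was more divided, since PRKAB1-201, of 270 codons, held 50.7 ± 6.62% of its counts in siPDCD4 and 47.7 ± 15.2% in siCT. The retained-intron transcript PRKAB1-207 held 22.2 ± 4.91% in siPDCD4 and 25.5 ± 11.3% in siCT, and reached 38.6% in siCT replicate 3. The smaller coding transcripts PRKAB1-206 and PRKAB1-205 held 7.25 ± 3.34% and 8.88 ± 3.83% in siPDCD4, against 10.5 ± 6.74% and 6.57 ± 1.34% in siCT. By TPM instead of counts, PRKAB1-201 held 40.1 ± 2.83% of PRKAB1 in siPDCD4 and 37.3 ± 9.52% in siCT. PRKAB2-201 held 74.8 ± 7.38% of PRKAB2 TPM in siPDCD4 and 75.2 ± 4.78% in siCT. The beta shares per length thus take in other transcripts as well.

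STK11, on chromosome 19 (1177558 to 1228431), encodes LKB1. It had 45.4, 45.2 and 38.2 CPM in siPDCD4 libraries, against 42.8, 42.9 and 40.9 CPM in siCT libraries. The siPDCD4 libraries lay on both sides of the siCT libraries, and the log2 fold change was 0.02 ± 0.10. Its counts were spread over several transcripts. The largest was STK11-209, of 404 codons, with 39.7 ± 2.97% in siPDCD4 and 36.8 ± 4.79% in siCT. The 433-codon transcript STK11-201 held 31.1 ± 3.54% in siPDCD4 and 33.2 ± 5.52% in siCT, and STK11-202, also of 404 codons, held 10.1 ± 0.56% in siPDCD4 and 9.55 ± 2.68% in siCT. The retained-intron transcript STK11-205 held 11.2 ± 3.33% in siPDCD4 and 12.1 ± 4.55% in siCT.

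Ordered by TPM, the 7 genes took the same places in both groups. After PRKAG2 and PRKAG1 came PRKAA1, at 32.9 ± 1.11 TPM in siPDCD4 and 32.3 ± 3.12 TPM in siCT, and STK11, at 24.7 ± 2.55 TPM in siPDCD4 and 23.9 ± 1.40 TPM in siCT. The beta genes followed, with PRKAB2 at 8.47 ± 0.60 TPM in siPDCD4 and 7.76 ± 0.51 TPM in siCT, and PRKAB1 at 6.74 ± 1.17 TPM in siPDCD4 and 6.27 ± 0.87 TPM in siCT. PRKAA2 was last, at 0.53 ± 0.05 TPM in siPDCD4 and 0.50 ± 0.08 TPM in siCT. Neighbours in this order did not overlap in their libraries, with the exception of PRKAB2 and PRKAB1 in siCT, whose ranges of 7.17 to 8.13 TPM and 5.50 to 7.21 TPM met. By subunit class, gamma RNA exceeded alpha RNA (33.4 ± 1.10 TPM in siPDCD4 and 32.8 ± 3.20 TPM in siCT), which exceeded beta RNA (15.2 ± 1.59 TPM in siPDCD4 and 14.0 ± 1.26 TPM in siCT). The TPM of a gene sums all its transcripts, coding or not, and short transcripts weigh more in TPM than in counts. PRKAA1-204 held 33.3 ± 1.15% of PRKAA1 TPM in siPDCD4 and 36.0 ± 2.36% in siCT. The retained-intron transcript PRKAA1-205 held 23.3 ± 3.71% in siPDCD4 and 21.5 ± 1.12% in siCT. For STK11-205 it was 30.6 ± 7.22% of STK11 TPM in siPDCD4 and 32.3 ± 9.38% in siCT. The order is thus not one of coding RNA alone. These are levels of RNA, and protein was not measured in these files.

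The lower PRKAG2 level was next followed by transcript. Of 35 listed PRKAG2 transcripts 15 passed the filter on low counts, of which 12 were lower in siPDCD4 and 3 higher by log2 fold change, with a median of -0.52. Over all 47375 transcripts tested the median was -0.01, and 51.1% were below 0. In the transcript fit with edgeR none of the 39 tested transcripts of the 7 genes passed an FDR of 5%, as for all transcripts (0%, with 1473 at an unadjusted p under 0.05). With DESeq2 1 of the 39 passed, PRKAG2-203, where 1.13% of all tested transcripts did. The transcripts of 1 gene share reads and exons, and are not independent of the gene value used to choose PRKAG2.

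PRKAG2-203 carried 73.2% of all PRKAG2 counts and was the only PRKAG2 transcript with at least 5% of them. It had 90.8, 89.3 and 84.4 CPM in siPDCD4 libraries, against 141.5, 126.9 and 110.6 CPM in siCT libraries. Transcript CPM carry no length offset, so they need not add up to the gene CPM. The groups did not overlap, and the log2 fold change in the transcript fit was -0.52 ± 0.11. Its share of the gene was 78.8%, 75.1% and 68.3% in siPDCD4 libraries, against 76.7%, 73.7% and 64.6% in siCT libraries. In both groups the share fell from replicate 1 to replicate 3, and at each replicate number it was higher in siPDCD4. The labels do not pair replicates of equal number. The shares overlapped, with means of 74.1 ± 5.31% in siPDCD4 and 71.6 ± 6.33% in siCT. That difference of 2.41 percentage points became -1.13 points without siCT replicate 3, where siPDCD4 replicate 3, the lowest of its group, was kept.

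**Figure D3:**
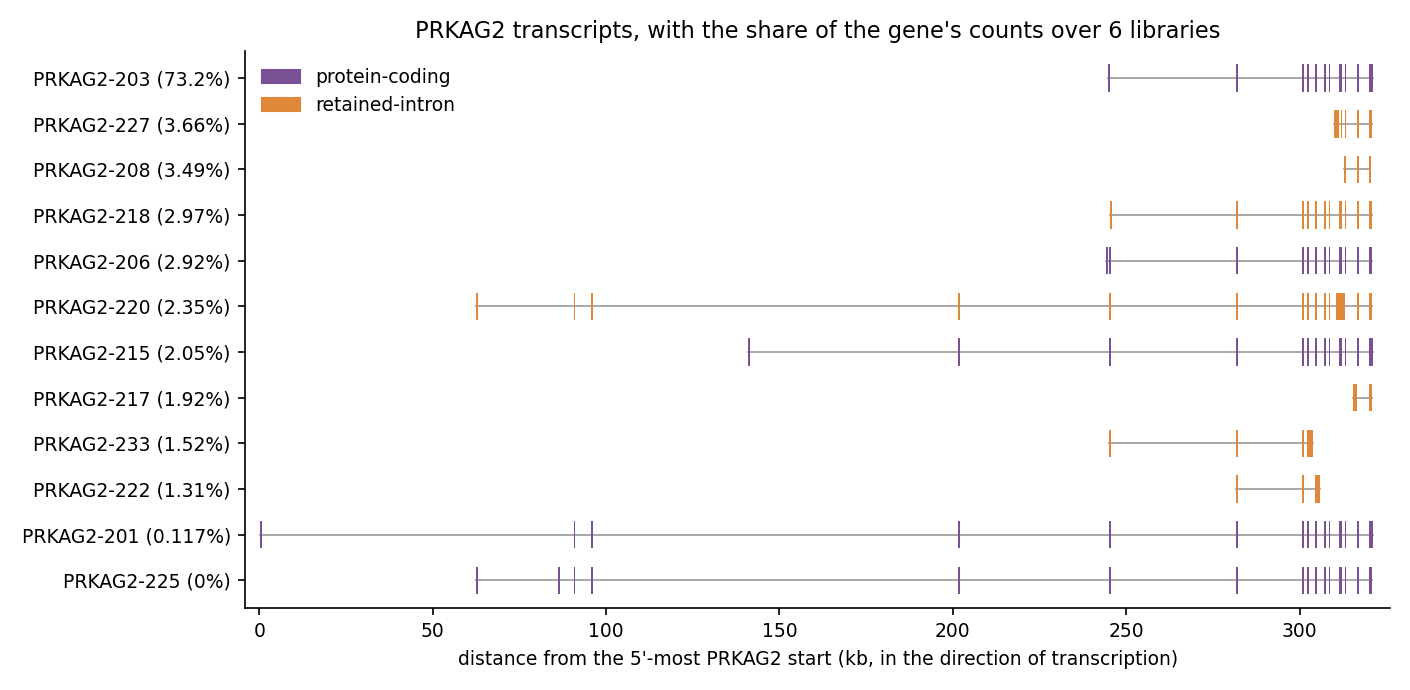
Exons of PRKAG2 transcripts (boxes, drawn at least 0.5 kb wide) by distance in kb from the start that lies farthest upstream, with the share of the gene's counts over 6 libraries beside each name. The 10 transcripts with at least 1% of the counts are shown with the long coding forms PRKAG2-201 and PRKAG2-225. PRKAG2-203, with 73.2%, begins about 245 kb downstream of the first start, and PRKAG2-201, with 0.117%, spans the whole gene.

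The remaining 34 PRKAG2 transcripts were low in siPDCD4 as well. Together they had 24.4, 29.5 and 39.1 CPM in siPDCD4 libraries, against 42.9, 45.3 and 60.8 CPM in siCT libraries. The groups did not overlap, and the mean differed by -37.6%. All 8 transcripts beginning near the internal start had 96.7 ± 2.12 CPM in siPDCD4 and 135.6 ± 14.8 CPM in siCT, a difference of -28.7%. They held 81.2 ± 3.69% of the PRKAG2 counts in siPDCD4 and 76.9 ± 6.23% in siCT.

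The other RefSeq starts carried few reads. PRKAG2-206, which encodes the same number of codons as PRKAG2-203 from the start at 151633111, had 2.49, 3.16 and 2.98 CPM in siPDCD4 libraries, against 4.61, 5.15 and 8.42 CPM in siCT libraries. The groups were apart, and siCT replicate 3 was the highest. PRKAG2-215, of 444 codons from the start at 151736263, had 0.28, 0.35 and 2.79 CPM in siPDCD4 libraries and 6.54, 2.60 and 5.17 CPM in siCT libraries, and here the groups overlapped. The 5 transcripts that begin near the far upstream start, PRKAG2-201 among them, summed to 1.21 ± 0.46 CPM in siPDCD4 and 1.34 ± 0.14 CPM in siCT, and also overlapped.

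Transcripts annotated with a retained intron made up much of the remainder. The 12 of them summed to 18.7, 24.5 and 30.1 CPM in siPDCD4 libraries, against 28.5, 33.4 and 41.1 CPM in siCT libraries, so that siPDCD4 replicate 3 overlapped with siCT replicate 1. The sum rose from replicate 1 to replicate 3 in both groups, and at each replicate number it was lower in siPDCD4. Their share of the gene was 20.4 ± 4.05% in siPDCD4 and 19.6 ± 4.29% in siCT. Of the 10 that were tested, 8 had a log2 fold change below 0. The 12 protein-coding transcripts summed to 92.3 ± 1.60 CPM in siPDCD4 and 138.0 ± 14.5 CPM in siCT, with no overlap. Salmon divides ambiguous reads between transcripts, so values of the small transcripts are estimates with a spread of their own. The median biological coefficient of variation was 0.414 for transcripts beside 0.125 for genes.

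**Figure D4:**
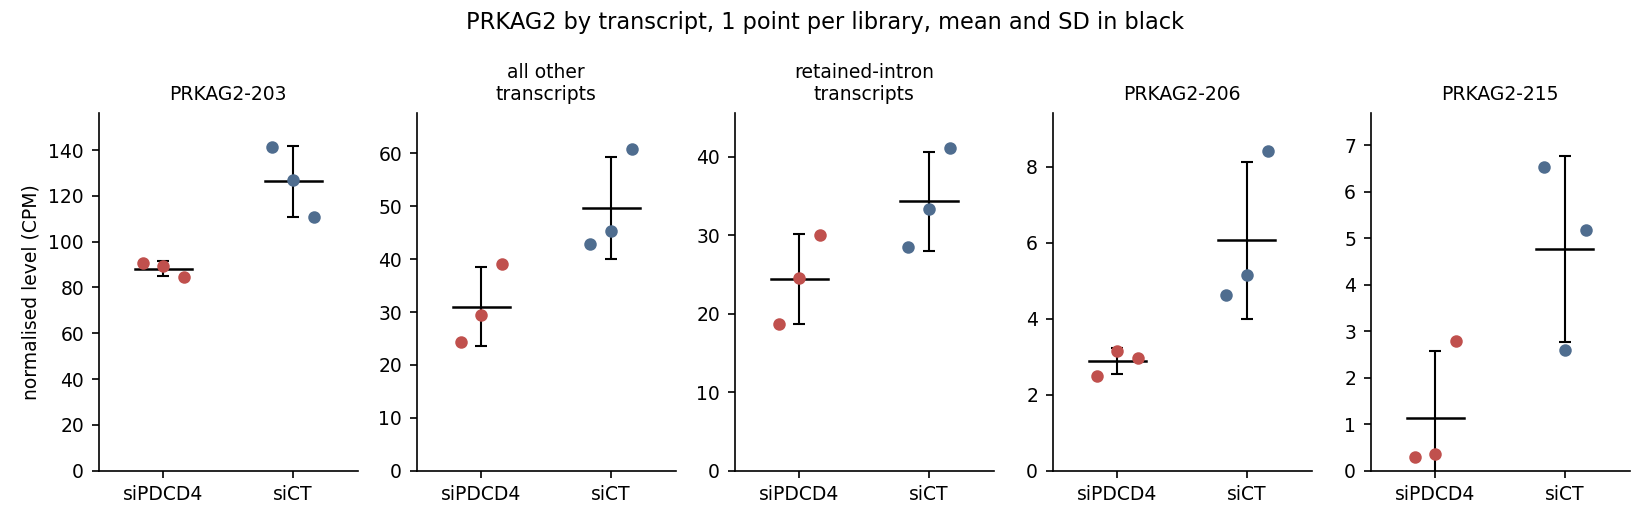
Normalised level (CPM, y axes from 0, scaled per panel) of PRKAG2-203, of the other 34 PRKAG2 transcripts together, of the 12 retained-intron transcripts, and of PRKAG2-206 and PRKAG2-215 in each siPDCD4 and siCT library, with the mean and SD in black (n = 3). PRKAG2-203 lay between 84.4 and 90.8 CPM in siPDCD4 and between 110.6 and 141.5 CPM in siCT, and the retained-intron sum and PRKAG2-215 overlapped between the groups.

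The surrounding pathway was read from 5 lists of 63 genes, of which 58 were tested. No gene of the lists passed an FDR of 5% over all genes in edgeR, DESeq2 or limma-voom, where 0.429% of all tested genes passed in edgeR, and 5 had an unadjusted p under 0.05 in edgeR. Of the 58, 28 lay above 0 and 30 below on the log2 scale, and the median was -0.01, as over all tested genes. In 13 of the 58 the siPDCD4 and siCT libraries did not overlap, a larger share than the 13.9% of all tested genes. This difference was not tested. Missing the threshold does not show that a gene was equal in both groups, and the values of the 3 genes with the smallest p in each list follow.

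All 7 LKB1 partners and alternative upstream kinases were tested, 5 above 0 and 2 below. CAMKK2, the calcium-dependent AMPK kinase, had a log2 fold change of 0.13 ± 0.10, and MAP3K7, also known as TAK1, had 0.11 ± 0.09. The scaffold gene CAB39L had 0.26 ± 0.22, with 9.33, 8.31 and 15.1 CPM in siPDCD4 libraries and 9.88, 8.74 and 8.57 CPM in siCT libraries. Its value rested on siPDCD4 replicate 3 and was -0.031 without that library, 0.42 without siPDCD4 replicate 2 and 0.010 without the correction for transcript length. CAMKK2 was at 0.064 without siCT replicate 3, and MAP3K7 at 0.070 without siPDCD4 replicate 3. Among the AMPK-related kinases, which LKB1 also activates, 10 of 12 were tested, 4 above 0 and 6 below. NUAK1 had -0.59 ± 0.30 at low levels, between 1.40 and 2.29 CPM in siPDCD4 and between 2.56 and 3.20 CPM in siCT, NUAK2 had 0.46 ± 0.22 and SIK3 had -0.26 ± 0.15. NUAK1 was at -0.39 without siPDCD4 replicate 1 and NUAK2 at 0.27 without siPDCD4 replicate 2, and SIK3 was at -0.11 without siCT replicate 3 and -0.020 without the length correction. BRSK1 and BRSK2, kinases known from neurons, were below the filter.

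Of 14 AMPK regulators 12 were tested, 6 above 0 and 6 below. SESN3, which encodes a stress-responsive sestrin, had 0.37 ± 0.17, and its siPDCD4 libraries (10.3, 10.2 and 13.3 CPM) lay above its siCT libraries (9.85, 8.06 and 8.29 CPM). UBE2O, a ubiquitin-conjugating enzyme known to target AMPK alpha, had -0.22 ± 0.10, a value that was 0.017 without the correction for transcript length. AK4, a mitochondrial adenylate kinase, had 0.20 ± 0.11. The value of SESN3 was 0.24 and that of UBE2O -0.14 without siPDCD4 replicate 3, and that of AK4 was 0.083 without siCT replicate 3, the library that stood apart. PPM1E was below the filter, and SESN2 was not analysed here.

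The 13 metabolic substrates of AMPK were all tested, 8 above 0 and 5 below. GYS1, the glycogen synthase of muscle and most other tissues, had 67.7, 54.5 and 68.4 CPM in siPDCD4 libraries, against 71.3, 77.6 and 85.2 CPM in siCT libraries, a log2 fold change of -0.30 ± 0.11 (adjusted p = 0.463 in edgeR). SREBF2, the transcription factor of sterol synthesis, had 109.2, 105.3 and 103.8 CPM in siPDCD4 libraries, against 119.7, 134.6 and 114.8 CPM in siCT libraries, and a log2 fold change of -0.21 ± 0.09 (adjusted p = 0.503 in edgeR). Neither gene overlapped between the groups, and neither passed the test. GYS1 was at -0.20 without siPDCD4 replicate 2, and SREBF2 at -0.11 without the length correction. PFKFB3, an enzyme whose product activates glycolysis, had 0.21 ± 0.11.

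Of 17 substrates in growth and autophagy 16 were tested, 5 above 0 and 11 below, with a median of -0.13. CRTC2, a coactivator of CREB, had 25.1, 26.1 and 19.3 CPM in siPDCD4 libraries, against 31.3, 35.5 and 30.2 CPM in siCT libraries. Its log2 fold change of -0.47 ± 0.14 had the smallest p of all 58 genes (unadjusted p = 0.006, adjusted p = 0.267 in edgeR), and was -0.27 without the length correction. HDAC5, a class IIa histone deacetylase, had 6.25, 9.14 and 7.63 CPM in siPDCD4 libraries, against 4.58, 5.35 and 4.67 CPM in siCT libraries, and a log2 fold change of 0.65 ± 0.20 (adjusted p = 0.319 in edgeR). FOXO3, a stress-responsive transcription factor, had -0.21 ± 0.09 (adjusted p = 0.544 in edgeR). The groups did not overlap in any of these 3 genes. PPARGC1A, the coactivator of mitochondrial biogenesis, was below the filter.

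**Figure D5:**
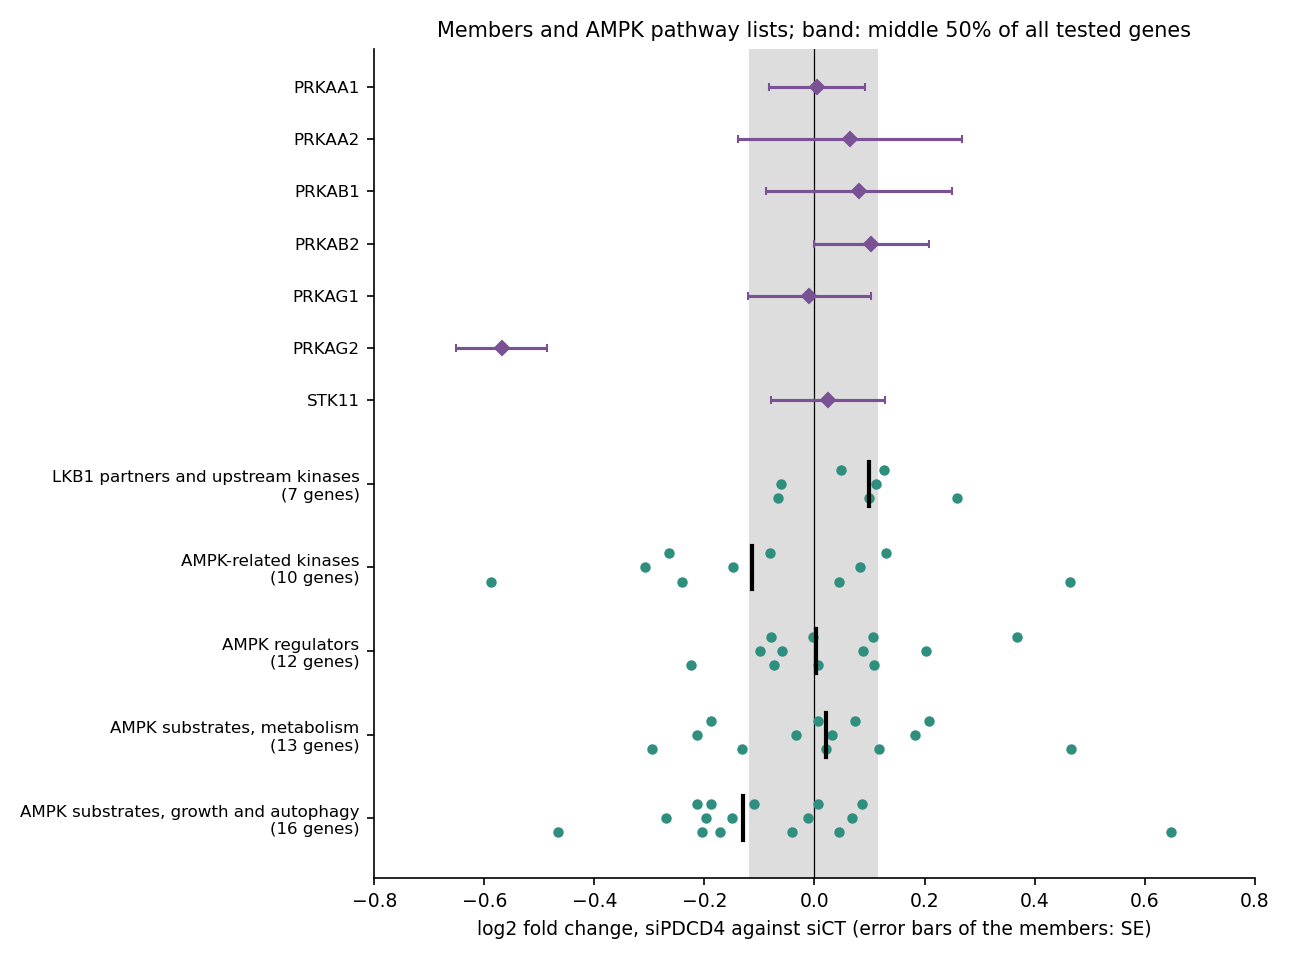
Change between siPDCD4 and siCT on the log2 scale (x axis, positive where siPDCD4 was higher) for the 7 genes (diamonds, with SE) and for the 58 tested genes of 5 AMPK pathway lists (1 point per gene, the black line marking the median of a list). The grey band spans the quartiles of all 13047 tested genes, -0.12 to 0.11, and PRKAG2, at -0.57, lies outside it while the other 6 diamonds lie inside.

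The genes whose levels ran most like PRKAG2 were found among 8969 protein-coding genes with a mean of at least 10 CPM, as the Pearson correlation of log2 CPM over the 6 libraries. They were EFCAB14 (r = 0.992), the oestrogen sulfotransferase gene SULT1E1 (0.989), the zinc transporter gene SLC39A14 (0.988), the Notch-related receptor gene DNER (0.987) and ASPH (0.986). The 6 points fall into the 2 siRNA groups, so these values mostly restate that each gene was lower in siPDCD4. EFCAB14, for example, had 85.9, 90.0 and 93.4 CPM in siPDCD4 libraries, against 151.2, 145.5 and 147.5 CPM in siCT libraries. After the group means were taken out, the 5 most alike were PIP4K2A (0.997), NUCB2 (0.991), PLEKHA1 (0.989), BASP1 (0.986) and GNG11 (0.985). These are the highest of 8969 genes on 6 points, a ranking that by itself favours high r. PRKAG2 varied little in siCT (SD 1.23 CPM, against 8.98 CPM in siPDCD4), so r rests mostly on the siPDCD4 libraries. Whether these genes vary together with PRKAG2 was not tested. No gene was in both sets. The 5 other members with a mean of at least 10 CPM had r between -0.55 (PRKAB2) and -0.11 (PRKAA1) over the 6 libraries.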

How the data were processed

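The authors prepared stranded total RNA libraries from 3 siPDCD4 and 3 siCT samples, ran Salmon (version not given in the sources used here) against a GRCh38 transcript set and deposited a transcript table for each library. The estimated counts and the TPM values, with the transcript lengths behind them, were both made by the authors in that run. Between 36.2% and 39.1% of the listed transcripts in a library had an estimated count that was not whole, since Salmon shares reads among transcripts. By identifier, 181244 of 194142 listed transcripts matched GENCODE release 44 on GRCh38. The remaining 12898, with 5.47% to 6.21% of the counts, were not used here.

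Matched transcripts were summed to genes, rounded and tested in edgeR 4.0.16 (R 4.3.3; robust quasi-likelihood F test, TMM factors, filterByExpr, offset for transcript length), with Benjamini-Hochberg adjustment over all genes tested and a threshold of 5% FDR. Transcripts were tested likewise without the offset. Gene CPM were computed with the same factors and offset as the gene fit. Transcript CPM were computed with TMM factors of the transcript counts and no offset. A ± gives the SD for levels and shares and the SE for log2 fold changes. The fits were also run on simulated data with the same spread for genes and transcripts, smaller than that found here for transcripts. That run therefore says nothing about the transcript calls. Groups and replicate numbers came from the sample titles.

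The members and the pathway lists were chosen with earlier results of these data known. Named were the members, PRKAG3, PDCD4, in each pathway list any gene past the FDR and the 3 with the smallest p, member transcripts with at least 5% of a gene's counts, and the 5 genes most alike to PRKAG2 in log2(CPM + 0.5), over all libraries and with group means removed. Other PRKAG2 transcripts and pathway genes that were not tested were named after their values were seen. Marker lists were those of basal mammary epithelium, epithelium, fibroblasts, leukocytes, endothelium and hormone-responsive luminal cells. Their sums, siPDCD4 against siCT, were 416.1 to 462.8 against 386.6 to 497.6 TPM for epithelium, 1.23 to 1.82 against 0.872 to 2.12 TPM for fibroblasts, 6.35 to 7.94 against 6.22 to 8.48 TPM for leukocytes, 0.226 to 0.697 against 0.250 to 0.281 TPM for endothelium, and 0.0271 to 0.103 against 0.0693 to 0.196 TPM for luminal cells. Alternatives were DESeq2 1.42.0, limma-voom (limma 3.58.1), other size factors and filters, no length offset, a replicate block and leaving out each library. Python 3.11.15, pandas 2.3.3 and matplotlib 3.10.9 were used for tables and figures.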

Additional observations from a re-analysis of the deposited data

How the results depend on the processing

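PRKAG2 stayed below 0 under all 13 alternatives, passed an FDR of 5% in all 7 that kept every library and in 3 of 6 that left 1 out, and its log2 fold change lay between -0.61 and -0.51 over those 6. Since PRKAG2 was chosen with this comparison known, these passes describe the dependence on settings and are no test of PRKAG2. The number of genes past the FDR, 56 as reported, was 108 without the expression filter, 193 with DESeq2 and 128 without the length offset, and lay between 17 and 40 with 1 library left out. Transcripts past the FDR numbered 0 in edgeR and 537 with DESeq2. With a replicate block 102 genes passed. The labels do not pair the samples, so the numbers were not taken as pairs. The deviations of equal-numbered siPDCD4 and siCT libraries correlated at 0.07, 0.12 and 0.18, and those of unequal-numbered libraries between -0.19 and 0.10. These correlations do not settle whether libraries of equal number were prepared together. The share difference of PRKAG2-203, 2.41 percentage points, ranged from -1.13 to 5.29 with 1 library left out. CAB39L, 0.26 as reported, ranged from -0.031 (without siPDCD4 replicate 3) to 0.42 with 1 library left out, and UBE2O, -0.22 as reported, was 0.017 without the length offset. Without that offset CAB39L was 0.010, SIK3 -0.020, SREBF2 -0.11, CRTC2 -0.27 and PRKAA1 -0.11. Without siCT replicate 3 CAMKK2 was 0.064, SIK3 -0.11, AK4 0.083, PRKAB1-207 0.32 and PRKAB1-206 0.21, and PRKAB1-205 was 0.21 without siPDCD4 replicate 3. The cause was not tested in any of these cases. Depth limits PRKAA2, at 54.0 to 114.0 estimated counts per library, and the small PRKAG2 transcripts, and counting intervals would cover counting error only.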
